A study of Mus musculus with 10 samples.

Results

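The genes described are those of glycine receptors and glycine transport: the alpha subunits Glra1, Glra2 and Glra3, the beta subunit Glrb, the glycine transporter Slc6a9 and the anchoring protein gene Gphn. They were chosen by symbol, not by a cutoff on measured values, although earlier results of these data were known. All 6 were found among the 29883 genes of the count table. RNA was sequenced from the nucleus accumbens (NAc), a region of the ventral striatum, of 5 C57BL/6J (B6) and 5 DBA/2J (D2) mice, with 1 poly-A library per mouse. All mice were male, came from the Jackson Laboratory, were group-housed and untreated, and were killed at 9 weeks of age. B6 and D2 are inbred strains, the progenitors of a recombinant inbred panel used in ethanol research, so the comparison concerns basal levels in mice given no ethanol.

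Glycine receptors are chloride channels made of 5 subunits and are blocked by strychnine. Alpha subunits can form channels alone or together with the beta subunit, and the beta subunit binds gephyrin (the product of Gphn), which holds the receptor at inhibitory synapses and also anchors many GABA-A receptors. GlyT1, the product of Slc6a9, takes glycine up mainly into astrocytes, while GlyT2 (Slc6a5) serves the terminals of glycine-releasing neurons of the brainstem and spinal cord. Glycine receptors of the accumbens are known as targets of ethanol, and alpha 2 and alpha 3 are the forms usually described in the forebrain, with alpha 1 more abundant in the hindbrain and spinal cord.

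The 4 receptor subunits are related in sequence, and the following stretch of 60 coding bases is the part shown because it is among the most alike, with capitals for the 41 bases that are the same in all 4. Glra1 is read from exon 4 at chr11:55427163-55427222, minus strand; Glra2 from exon 4 at chrX:164064875-164064934, minus strand; Glra3 from exon 4 at chr8:56492725-56492784, plus strand; and Glrb from exon 5 at chr3:80769255-80769314, minus strand, all in GRCm39 and written 5′ to 3′ on the strand of the gene.
Glra1: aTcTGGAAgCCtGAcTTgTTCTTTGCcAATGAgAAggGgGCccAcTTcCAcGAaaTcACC
Glra2: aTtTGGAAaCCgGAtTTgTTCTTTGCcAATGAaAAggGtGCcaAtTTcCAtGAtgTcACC
Glra3: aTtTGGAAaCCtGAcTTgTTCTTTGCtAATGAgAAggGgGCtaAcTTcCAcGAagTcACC
Glrb: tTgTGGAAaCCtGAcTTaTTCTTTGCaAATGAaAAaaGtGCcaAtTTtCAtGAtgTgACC
Glra1 and Glra3 shared 54 of these 60 bases, and Glra1 and Glrb shared 44. Over the whole aligned coding sequence the alpha subunits were 71.5% to 73.4% identical to one another, and Glrb was 55.3% to 56.2% identical to them. The longest run of bases shared by any pair of alpha subunits was 26, and no 50-base stretch of a member occurred in another member or in Glra4, so a full-length read of one subunit does not match another.

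Between 96977262 and 116776714 reads were counted on genes per mouse. The tissue label was checked against marker genes: 10 markers of striatal projection neurons summed to between 3516 and 5341 CPM in every library (CPM, the reads of a gene scaled to the size of the library, as edgeR gives it). In B6, replicates 3 and 5 stood apart from the other mice. Their 6 summed cortex neuron markers, which include Slc17a7 and Tbr1, reached 926 and 938 CPM against 74.7 to 160 CPM in the other 3 B6 mice and 213 to 576 CPM in D2. Their 4 summed cholinergic interneuron markers, Chat, Slc5a7, Slc18a3 and Lhx8, were 42.9 and 44.1 CPM, below the 84.0 to 99.6 CPM of the other B6 mice and the 72.6 to 119.6 CPM of D2. None of the markers of either list was at 0 in any library. These 2 libraries were also the most alike pair of their strain, but differed by more than sampling noise (mean chi-square of 4.89 per gene, where noise alone gives about 1), and were kept as 2 samples. The fits of the glycine genes are given with and without them, and in bulk tissue fewer cells of a type and less RNA per cell cannot be told apart.

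Per kilobase of merged exons, Glrb had the highest level of the 6 genes in every mouse, at 15.8 CPM per kb in B6 and 14.7 in D2 (strain means). Slc6a9 followed with 9.36 and 9.53 CPM per kb, then Gphn with 6.79 and 6.63 and Glra2 with 4.68 and 5.59. Glra3 had 1.08 and 1.41 CPM per kb, and Glra1 had 0.192 and 0.194. In these merged-exon levels, the ranges over the 10 mice of neighbours in this order did not overlap. The order of Slc6a9 and Gphn depends on the length used: with the longest transcript as the length, Slc6a9 spanned 14.5 to 19.8 CPM per kb and Gphn 15.2 to 16.6, so these 2 neighbours were not separate. Glra4, the fourth alpha subunit gene, was at 0.134 CPM per kb in B6 and 0.256 in D2 and overlapped with Glra1.

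**Figure D1:**
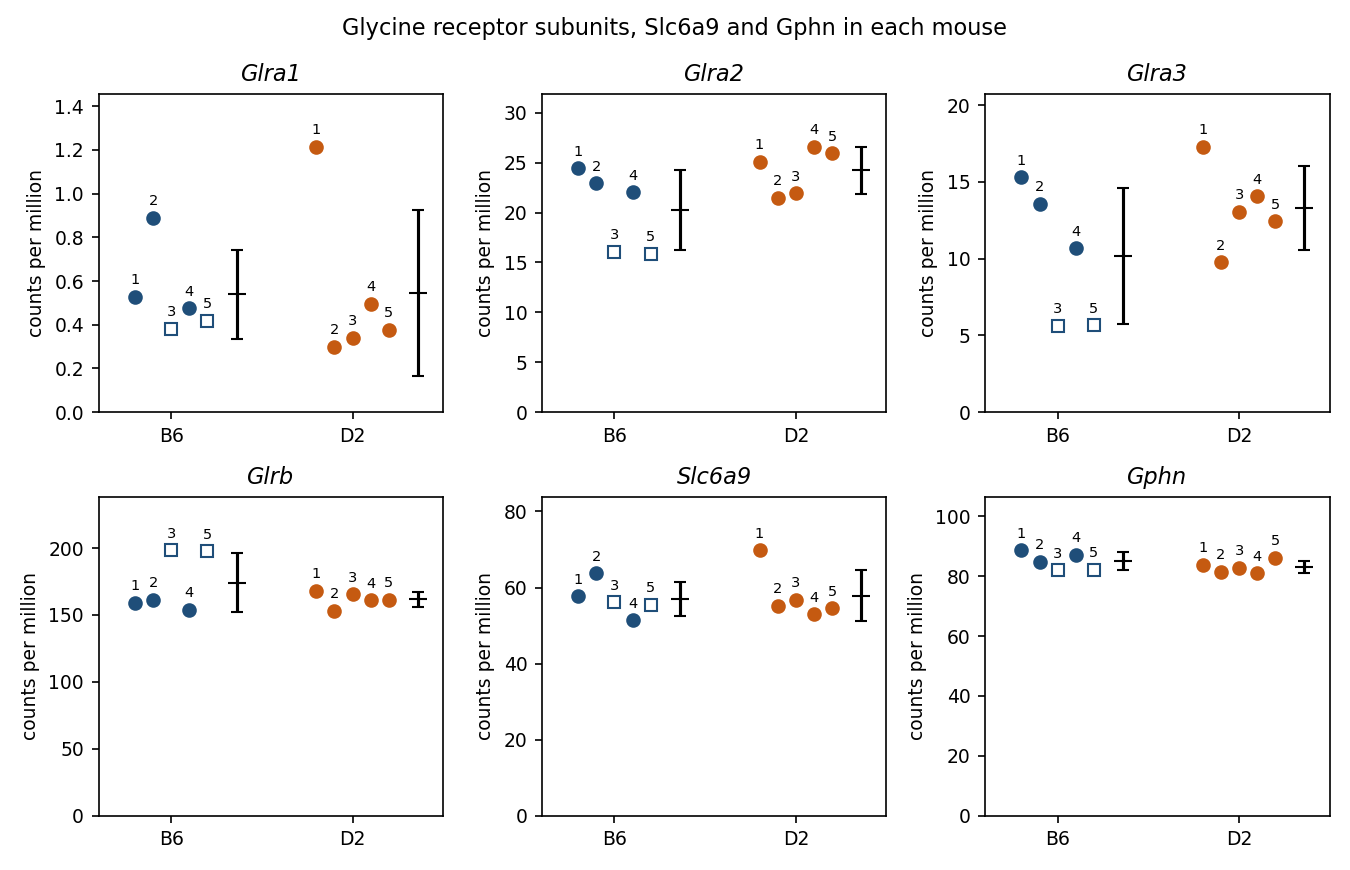
Level of each of the 6 genes in CPM (linear axis from 0) in each B6 (blue) and D2 (orange) mouse, numbered by replicate, with the mean and SD of the 5 mice as a black bar. Open squares are B6 replicates 3 and 5, which are the lowest of all 10 mice for Glra2 and Glra3 and the highest for Glrb, while Gphn stays between 81.0 and 88.7 CPM in all mice.

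None of the 6 genes differed between D2 and B6 in edgeR's quasi-likelihood test at an adjusted p under 0.05, where 18.3% of all genes did (5478 of 29883). None of the 6 had an unadjusted p under 0.05 in edgeR. In DESeq2 none passed either, and 1, Glra2, had an unadjusted p under 0.05. The median log2 fold change (D2 against B6) of the 6 was 0.02, and that of all genes was 0.00. All 6 had overlapping values in the strains, where 16.0% of all genes did not overlap. The intervals of the differences were narrow for Gphn, Slc6a9 and Glrb and wide for Glra1 and Glra3.

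Glra2, the main alpha subunit by level here, lies on the X chromosome (X:163911666-164110678 in GRCm39, minus strand). Its levels in B6 replicates 1 to 5 were 24.4, 22.95, 16.05, 22.03 and 15.9 CPM. In D2 replicates 1 to 5 they were 25.1, 21.5, 21.95, 26.6 and 25.9 CPM. The strains overlapped because 3 B6 mice lay within the D2 range, and the other 2, replicates 3 and 5, lay below every D2 mouse. The mean was 20.3 ± 4.02 CPM in B6 and 24.2 ± 2.34 CPM in D2 (mean and SD, n = 5 per strain). The log2 fold change was 0.26 (SE 0.121, 95% interval -0.01 to 0.52), with an adjusted p of 0.181 in edgeR.

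Glra3 (chromosome 8, 56393446 to 56583293, plus strand) encodes the alpha 3 subunit. It had 15.3, 13.6, 5.65, 10.7 and 5.68 CPM in B6 replicates 1 to 5. In D2 replicates 1 to 5 it had 17.3, 9.76, 13.05, 14.1 and 12.4 CPM. The lowest mice were again B6 replicates 3 and 5, the other 3 B6 mice fell within the D2 range, and the highest mouse had 3.07 times the level of the lowest. Means were 10.2 ± 4.44 CPM in B6 and 13.3 ± 2.74 CPM in D2 (mean and SD, n = 5 per strain), and the log2 fold change was 0.39 (SE 0.265, 95% interval -0.19 to 0.96) with an adjusted p of 0.380 in edgeR.

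Glra1 (chromosome 11, 55405064 to 55499422, minus strand), the alpha subunit of the adult spinal cord, had the fewest reads of the 6 genes, 33 to 143 per library. B6 replicates 1 to 5 had 0.527, 0.891, 0.382, 0.475 and 0.419 CPM. D2 replicates 1 to 5 had 1.215, 0.299, 0.341, 0.496 and 0.378 CPM. One D2 mouse, replicate 1, was higher than every other mouse, and the other 4 D2 mice were below B6 replicates 1 and 2. The log2 fold change was 0.02 (SE 0.381, 95% interval -0.81 to 0.85), and without D2 replicate 1 it was -0.51. The coefficient of variation between mice was 37.9% in B6 and 69.9% in D2, and differences inside that interval were not detectable in these libraries. Glra4, outside the 6 genes, had only 5 to 83 reads per library, with 0.269 ± 0.190 CPM in B6 and 0.515 ± 0.141 CPM in D2 (mean and SD, n = 5 per strain) (log2 fold change 0.92, adjusted p = 0.176 in edgeR).

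Glrb (chromosome 3, 80749136 to 80882860, minus strand) encodes the beta subunit that carries the gephyrin binding site. Its levels were 159.1, 161.3, 198.5, 153.8 and 197.5 CPM in B6 replicates 1 to 5. In D2 replicates 1 to 5 they were 168.1, 153.3, 165.5, 161.2 and 161.4 CPM. Replicates 3 and 5 of B6 were the 2 highest mice, opposite to their place for Glra2 and Glra3, and the other 8 mice lay close together. The mean was 174 ± 22.1 CPM in B6 and 161.9 ± 5.59 CPM in D2 (mean and SD, n = 5 per strain), a log2 fold change of -0.10 (SE 0.0721, 95% interval -0.26 to 0.05), which did not pass (adjusted p = 0.387 in edgeR).

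Gphn (chromosome 12, 78272504 to 78732541, plus strand) was the least variable of the 6 genes between mice, with a coefficient of variation of 3.51% in B6 and 2.53% in D2. B6 replicates 1 to 5 had 88.7, 84.9, 82.1, 87.2 and 82.1 CPM. D2 replicates 1 to 5 had 83.9, 81.5, 82.9, 81.0 and 86.3 CPM. The 2 ranges largely coincided. The log2 fold change was -0.03 (SE 0.0331), and its 95% interval of -0.10 to 0.04 bounds any difference in Gphn RNA more tightly than for the other members.

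Slc6a9 (chromosome 4, 117691703 to 117732395, plus strand) had 57.8, 63.7, 56.1, 51.35 and 55.45 CPM in B6 replicates 1 to 5. It had 69.8, 55.3, 56.8, 52.9 and 54.6 CPM in D2 replicates 1 to 5. D2 replicate 1, the mouse with the highest Glra1, was also the highest for this transporter, and the other 4 D2 mice lay within the B6 range. The log2 fold change was 0.03 (SE 0.0757, 95% interval -0.14 to 0.19; adjusted p = 0.872 in edgeR).

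The cortex marker level moved with these genes across libraries, and 2 ways of taking it into account gave different answers for the receptor subunits. With the mean log2 level of the 6 cortex markers as a covariate in edgeR, 3 of the 6 genes passed, where 25.9% of all genes did. Glra2 was then higher in D2 by a log2 fold change of 0.36 (SE 0.0584, adjusted p = 2.73e-04) and Glra3 by 0.70 (SE 0.0936, adjusted p = 5.28e-05), and Glrb was lower, at -0.14 (SE 0.0451, adjusted p = 0.0358).

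Without B6 replicates 3 and 5, which leaves 3 B6 mice, 0 of the 6 passed in edgeR and 0 had an unadjusted p under 0.05, where 19.2% of all genes passed. The log2 fold changes were then 0.06 for Glra2 (95% interval -0.10 to 0.23), 0.01 for Glra3 (95% interval -0.32 to 0.35) and 0.03 for Glrb (95% interval -0.05 to 0.12). The covariate enlarged the differences of Glra2, Glra3 and Glrb, and leaving out the 2 libraries brought them close to 0, so none of these 3 differences is given as a strain difference here. Glra4 moved in the same way, to 1.54 with the covariate (adjusted p = 0.00134 in edgeR) and to 0.40 without the 2 libraries (adjusted p = 0.374). The part of the cortex markers in these values was not tested beyond these 2 fits, and Gphn and Slc6a9 stayed between -0.07 and 0.05 in both.

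**Figure D2:**
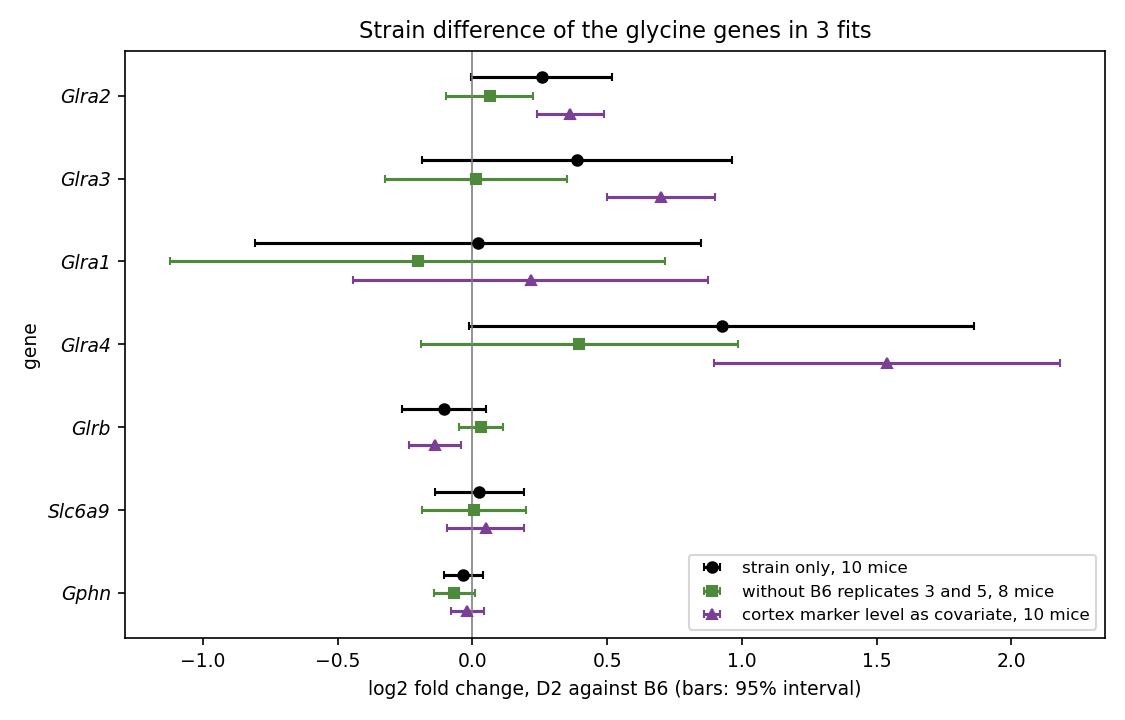
Log2 fold change (D2 against B6) with its 95% interval for the 6 genes and Glra4 in the fit with strain only (circles, 10 mice), without B6 replicates 3 and 5 (squares, 8 mice) and with the cortex marker level as covariate (triangles, 10 mice). Glra3 moves from 0.39 to 0.01 in one direction and to 0.70 in the other, while Gphn stays near 0.

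Across the 10 mice, Glra3 followed the summed cholinergic markers, from 5.65 CPM in the mouse with 42.9 CPM of those markers to 17.3 CPM in the mouse with 119.6 CPM. This is a description of libraries that also share their cortex marker level. D2 replicate 2, with the lowest cholinergic markers of its strain at 72.6 CPM, also had the lowest Glra3 of its strain. None of the 4 cholinergic and none of the 6 cortex markers passed over 10 mice in the fit with strain only. With the cortex marker level as covariate, also over 10 mice, all 4 cholinergic markers were higher in D2 (median log2 fold change 0.52). In that fit 25.9% of all genes passed. Without B6 replicates 3 and 5 none of the cholinergic markers passed, but 5 of the 6 cortex markers were higher in D2 (median log2 fold change 1.94), so the 8 remaining mice differed by strain in these markers.

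**Figure D3:**
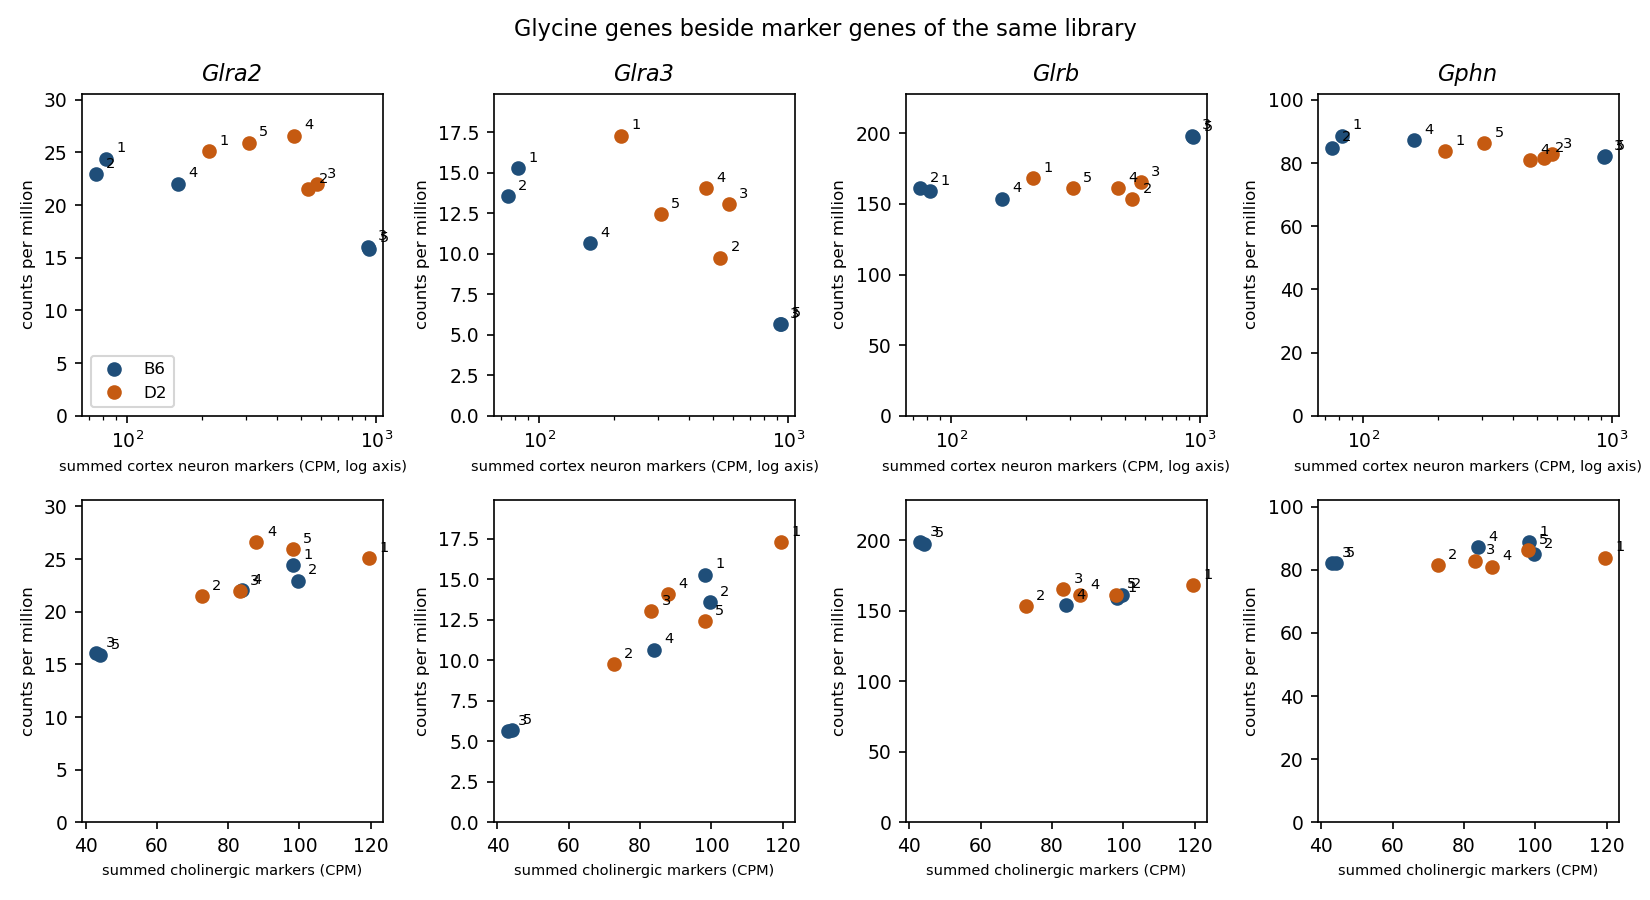
Level of Glra2, Glra3, Glrb and Gphn in CPM (axis from 0) in each B6 (blue) and D2 (orange) mouse, against the summed cortex neuron markers (top, log axis) and the summed cholinergic interneuron markers (bottom, linear axis), both in CPM. B6 replicates 3 and 5 lie at the far right of the top plots, at 926 and 938 CPM, with the lowest Glra2 and Glra3 and the highest Glrb.

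Ratios within a library do not depend on how libraries are scaled to one another. Of the summed alpha subunit RNA (Glra1, Glra2 and Glra3 per kilobase), Glra2 made up 79.4% ± 3.92 in B6 and 77.9% ± 3.73 in D2 (mean and SD, n = 5 per strain). Glra3 made up 17.4% ± 3.80 (SD, n = 5) and 19.5% ± 2.39 (SD, n = 5). The Glra1 share was 3.22% ± 0.787 in B6 and 2.60% ± 1.55 in D2 (mean and SD, n = 5 per strain). In all 10 mice Glra2 was thus the largest and Glra1 the smallest share, and no share differed between the strains (two-sided exact permutation test over 252 assignments, adjusted p from 0.476 to 0.563 over 6 quantities). The Glra1 share of D2 replicate 1 was 5.36%, and those of the other 4 D2 mice were 1.74%, 1.85%, 2.26% and 1.81%, each below the lowest B6 share of 2.52%. Without D2 replicate 1 the share was lower in D2 by 0.73 on the log2 scale (exact permutation test, adjusted p = 0.0476). The remaining D2 mice were all below B6, so the unadjusted p was the smallest that 126 assignments allow. It adds nothing to the order of the shares just given.

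The summed alpha subunits stood at 0.515, 0.481, 0.246, 0.457 and 0.246 of the Glrb level per kilobase in B6 replicates 1 to 5. In D2 replicates 1 to 5 the ratio was 0.527, 0.438, 0.437, 0.533 and 0.507. The lowest ratios were those of B6 replicates 3 and 5, and the other 8 mice, of both strains, lay between 0.437 and 0.533. The means of 0.389 ± 0.132 and 0.488 ± 0.0477 (SD, n = 5 each) did not differ beyond the spread between mice (log2 difference 0.40, exact permutation test, adjusted p = 0.476). With 1 mouse left out the log2 difference ranged from 0.25, without B6 replicate 3 or 5, to 0.52, and without both of these mice it was 0.0085. The ratio of Gphn to Glrb reads was 0.496 ± 0.0759 in B6 and 0.514 ± 0.0177 in D2, and that of Slc6a9 to Glrb reads was 0.331 ± 0.0501 and 0.357 ± 0.0346 (SD, n = 5 each). Neither passed.

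**Figure D4:**
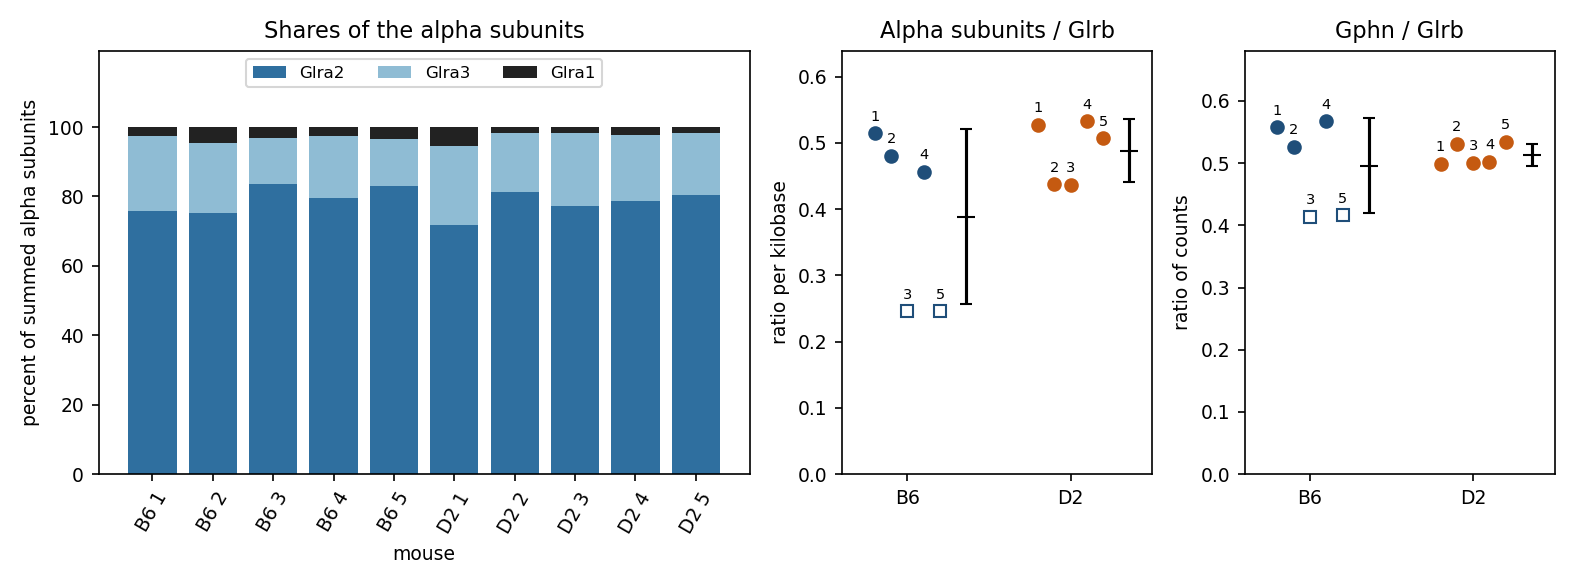
Left, share of Glra2, Glra3 and Glra1 in the summed alpha subunits (percent, per kilobase of merged exons) in each mouse. Middle and right, the ratio of the summed alpha subunits to Glrb (per kilobase) and of Gphn to Glrb (reads) in each B6 (blue) and D2 (orange) mouse, with mean and SD in black. B6 replicates 3 and 5 (open squares) are the lowest mice in both ratios, at 0.246 for the alpha subunits.

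Around the receptor, Phgdh, Psat1 and Gldc had less RNA in D2, and the other genes of glycine supply and removal did not pass. Of these 14 genes 3 were lower in D2 and 0 were higher in edgeR, a share close to the 18.3% of all genes that passed in either direction, and the median log2 fold change of the 14 was -0.09, against 0.00 for all genes. Without B6 replicates 3 and 5 the count was 5 lower and 0 higher, with Amt and Slc32a1 added, where 19.2% of all genes passed. With the cortex covariate 6 were lower, with Slc38a5, Psph and Srr added, and 2 were higher (Slc7a10 and Gcsh). In that fit 25.9% of all genes passed. Phgdh, the first enzyme of serine synthesis from glucose, from which glycine is made, had 53.4, 61.5, 54.4, 58.3 and 60.5 CPM in B6 replicates 1 to 5. It had 36.7, 40.75, 38.0, 32.5 and 34.8 CPM in D2 replicates 1 to 5. Every D2 mouse was below every B6 mouse, and the log2 fold change was -0.66 (SE 0.061, adjusted p = 5.93e-06 in edgeR).

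Psat1, the next enzyme of the same pathway, had 98.3, 107.8, 108.6, 103.8 and 113.6 CPM in B6 and 90.8, 91.5, 86.8, 79.2 and 86.6 CPM in D2 (replicates 1 to 5 each). The strains did not overlap, with a log2 fold change of -0.29 (SE 0.0475, adjusted p = 7.38e-04 in edgeR). The third enzyme, Psph, was at -0.16 and did not pass (adjusted p = 0.072 in edgeR). Gldc, the glycine decarboxylase of the mitochondrial cleavage system and a glycine-removing enzyme of astrocytes, had 30.7, 29.6, 36.8, 31.7 and 39.6 CPM in B6. In D2 it had 21.5, 28.9, 26.4, 24.5 and 26.1 CPM (replicates 1 to 5 each). The D2 mice were again all below the B6 mice, although the gap was small, and the log2 fold change was -0.40 (SE 0.0914, adjusted p = 0.00769 in edgeR). B6 replicates 3 and 5 were the 2 highest mice for Gldc, and without them its log2 fold change was -0.27 (adjusted p = 0.0256 in edgeR).

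The other parts of the cleavage system, Amt, Gcsh and Dld, did not pass, at -0.09, 0.07 and 0.04 on the log2 scale. Without B6 replicates 3 and 5 Amt passed, at -0.17 (adjusted p = 0.0225 in edgeR), and with the cortex covariate Gcsh was higher in D2. Neither did the serine hydroxymethyltransferases Shmt1 and Shmt2, which interconvert serine and glycine (-0.05 and -0.03). The astrocyte marker list, measured beside these genes of astrocytes, had 1 of 7 genes higher in D2 (Gja1) and 2 lower (Aqp4 and Aldh1l1), and summed to 3580 to 3934 CPM in B6 and 3777 to 4004 CPM in D2. Its part in the differences of Phgdh, Psat1 and Gldc was not tested.

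Of the transporters, Slc38a5, a glutamine and glycine carrier, was at -0.57 and did not pass (adjusted p = 0.0542 in edgeR), although it passed in DESeq2, with the cortex covariate, with the replicate number as a block and without B6 replicate 1 or 4, and without B6 replicates 3 and 5 it was at -0.28 (adjusted p = 0.289). Slc7a10, which exchanges glycine and serine, was at 0.16 and did not pass, but passed with the cortex covariate, at 0.22 (adjusted p = 0.00101 in edgeR). The vesicular transporter Slc32a1 was at -0.06 and did not pass, but without B6 replicates 3 and 5, which had 224.8 and 227.1 CPM against 312.4 to 318.3 CPM in the other B6 mice, it was lower in D2, at -0.23 (adjusted p = 0.0417 in edgeR). Slc6a5 (GlyT2) had only 5 to 19 reads per library.

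Gephyrin also makes the molybdenum cofactor, in a pathway separate from its role at synapses. Of 5 genes of that pathway and its enzymes, 1 was higher in D2 and 0 were lower, again a share close to the 18.3% of all genes, with a median log2 fold change of 0.00. Mocs1, which acts at the first step of the pathway, had 10.6, 10.8, 9.55, 10.2 and 10.4 CPM in B6 and 11.6, 13.3, 12.7, 12.4 and 13.02 CPM in D2 (replicates 1 to 5 each). The lowest D2 value was above the highest B6 value, and the log2 fold change was 0.29 (SE 0.0536, adjusted p = 0.0018 in edgeR). Mocs2, Mocs3, Suox and Mocos lay between -0.06 and 0.11.

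Of 12 gephyrin partners, which include the adhesion protein neuroligin 2 (Nlgn2), 0 were higher and 1 was lower in D2, where 18.3% of all genes passed in either direction. The median log2 fold change of the 12 was -0.00. The one that passed was Insyn1, a component of inhibitory synapses, with 142.2, 154.9, 194.7, 160.7 and 196.3 CPM in B6 and 137.6, 142.0, 149.0, 140.1 and 142.1 CPM in D2 (replicates 1 to 5 each). The strains overlapped slightly, B6 replicates 3 and 5 were the 2 highest mice, and the log2 fold change was -0.26 (SE 0.0802, adjusted p = 0.0432 in edgeR). Without those 2 mice it was -0.10 (adjusted p = 0.125 in edgeR), and with the cortex covariate it was -0.30 (adjusted p = 1.54e-05 in edgeR). Insyn1 kept its call in 10 of 19 alternatives. The remaining 11 partners lay between -0.08 and 0.11. Of these, Lhfpl4 passed in DESeq2, with filterByExpr and with at least 10 counts in every library, and Vps35 passed with total counts. Shisa7 was higher in D2 with the cortex covariate, at 0.12 (adjusted p = 0.024 in edgeR). Phgdh, Psat1, Gldc and Mocs1 passed in 19 of 19 alternatives.

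**Figure D5:**
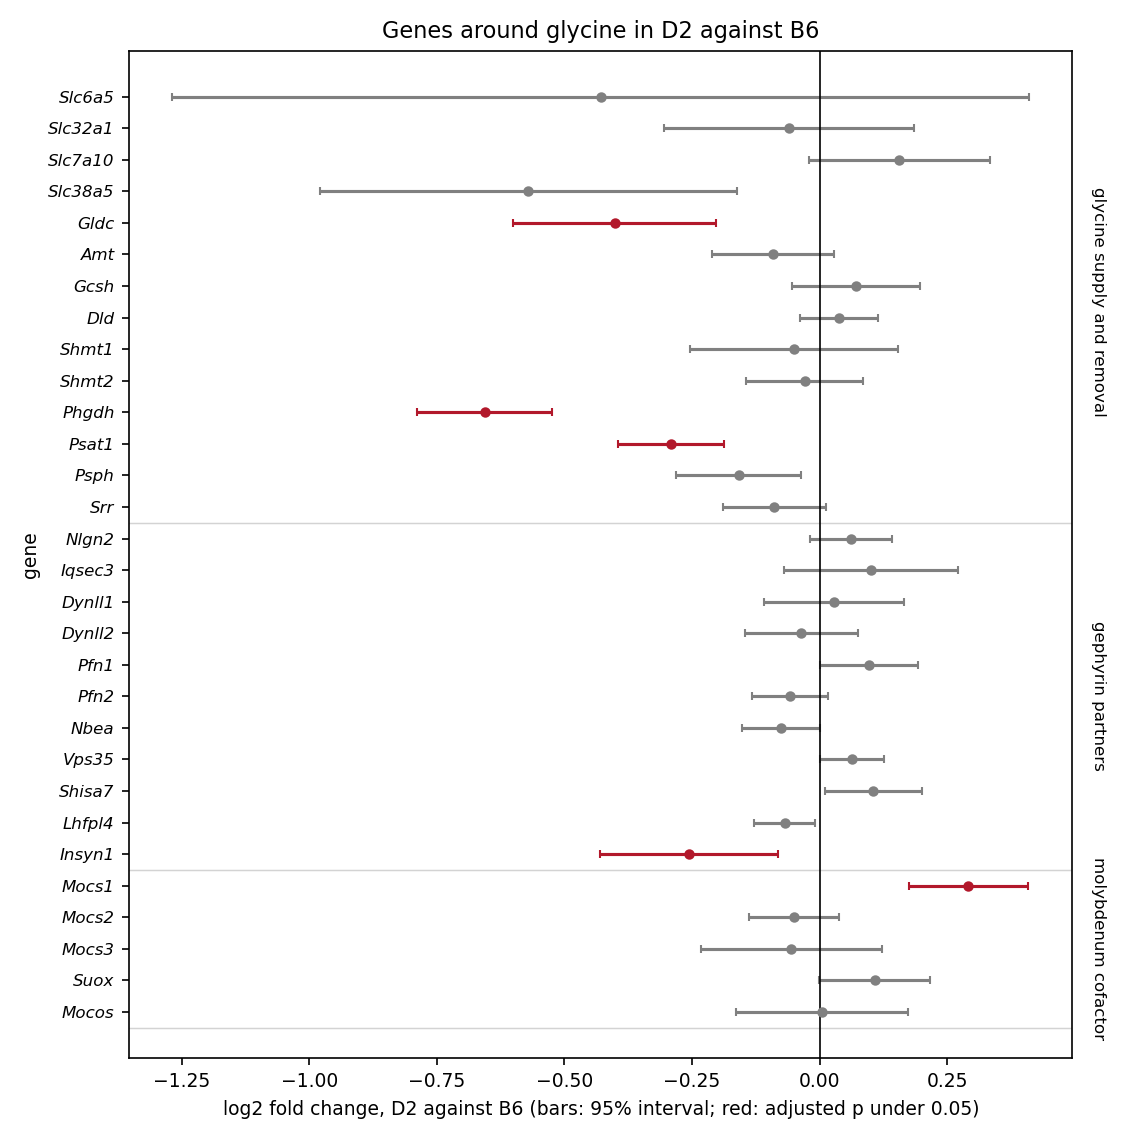
Log2 fold change (D2 against B6) with its 95% interval for genes around glycine, in 3 lists named at the right. Red marks the 5 genes with an adjusted p under 0.05 in edgeR: Phgdh, Psat1, Gldc and Insyn1 to the left of 0 and Mocs1 to the right.

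The genes next to the members on the chromosomes were compared in the same fit. Of 12 neighbours with a mean of at least 100 reads, 3 were lower in D2 and 0 were higher, where 18.3% of all genes passed in either direction. Hpgd, the enzyme that inactivates prostaglandins, lies 164.2 kb from Glra3 and had 4.50 ± 0.127 CPM in B6 and 2.20 ± 0.191 CPM in D2 (mean and SD, n = 5 per strain) (log2 fold change -1.03, adjusted p = 6.59e-07 in edgeR). B4galt2, a galactosyltransferase gene on the strand opposite to Slc6a9, had 58.7 ± 2.36 and 49.3 ± 2.31 CPM (SD, n = 5 each), a log2 fold change of -0.25 (adjusted p = 7.24e-04 in edgeR). The AMPA receptor gene Gria1, 1402.7 kb from Glra1, was at -0.15 (adjusted p = 0.0351 in edgeR), a call lost without 7 of the 10 mice in turn. The neighbours of Glra2, Glrb and Gphn did not pass.

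Exons of Slc6a9 overlap those of B4galt2 by 551 bases and those of Ccdc24 by 1429 bases on the opposite strand, and 27.8% of its 50-base stretches occur in another gene on either strand. Gphn overlaps the long noncoding RNA Gm48226 by 796 bases. The libraries kept the strand, but the strand setting of the counting is not given in the sources used here, so reads in these stretches may be left out or given to the wrong gene. For Glra2 and Glra3 no 50-base stretch was shared with another gene. Both strains were aligned to the B6 genome, and the effect of D2 alleles on the member counts was not tested.

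For each member, the genes with the most similar course over the 10 mice were listed after removal of the strain means, among 15332 genes, as a description. Glra2 was closest to Gfra1, a receptor for GDNF, and to Ntn1, the guidance factor netrin-1 (both r = 0.990). Glra3 was closest to Frem3 (r = 0.988) and Sema4g (r = 0.987), and Glrb to the kinase gene Mapk10 (r = 0.987) and Tnpo2 (r = 0.985). For these 3 members between 395 and 483 genes had r above 0.9, and without B6 replicates 3 and 5 between 76 and 200 had. For Tnpo2 the correlation without those mice was 0.831.

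Slc6a9 was closest to the microglial receptor gene Trem2 (r = 0.971) and to Lats2 (r = 0.966), Glra1 to Hykk (r = 0.976) and Polr2m (r = 0.943), and Gphn to Gm38124 (r = 0.961) and Gpatch11 (r = 0.955). With these 3 members between 24 and 41 genes had r above 0.9 over the 10 mice, and without B6 replicates 3 and 5 the counts were 189 for Slc6a9, 99 for Glra1 and 16 for Gphn. D2 replicate 1, the highest mouse for Slc6a9 and Glra1, was also the highest D2 mouse for Trem2, Lats2, Hykk and Polr2m. The correlations were not computed without that mouse. The genes of a library share its depth and its dissection, so the correlations carry no test.

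Promoter sequences from RefSeq (GRCm38.p6, another build than that of the counts) were matched for 5 of the 6 members, and Glra1 was not matched. Those of Glra2 and Glra3 are shown because both subunits were lowest in the same 2 mice. Each line gives the 120 bases before the start of the gene, 5′ to 3′ on its strand, with matches to the TATA box (TATAAA), the CCAAT box and the GC box (GGGCGG), each on either strand, in capitals. Glra2 is at chrX:165327394-165327513, minus strand, and Glra3 at chr8:55940298-55940417, plus strand.
Glra2: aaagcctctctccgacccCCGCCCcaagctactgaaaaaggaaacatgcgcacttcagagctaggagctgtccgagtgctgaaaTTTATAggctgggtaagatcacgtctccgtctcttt
Glra3: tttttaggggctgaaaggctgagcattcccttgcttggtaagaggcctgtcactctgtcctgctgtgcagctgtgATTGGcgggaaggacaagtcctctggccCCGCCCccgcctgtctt
In the 250 bases before the start, Glra2 had 1 match to TATAAA, found in 12.4% of all 32851 windows, and 1 to GGGCGG, found in 32.7%. Glra3 had 2 matches to CCAAT, found in 33.8% of windows, and 1 to GGGCGG. Neither had a match to TGACG, the core of the cAMP response element, found in 17.8% of windows, and of the 4 motifs searched GGGCGG was the one found in both. Gphn had the most CpG-rich window, with 34 CpG and 77.2% GC, and Glrb had 20 CpG and 62.4% GC, against a median of 6 CpG and 52.4% GC over all windows. Glra2, with 8 CpG and 50.4% GC, and Glra3, with 4 CpG and 56.0% GC, lay near that median.

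Some markers of other cells differed between the strains in the same libraries. Of the 10 striatal projection neuron markers 6 were lower in D2 (Drd2, Adora2a, Penk, Rgs9 and Bcl11b among them) and 0 higher, and their sum was 4078 to 5341 CPM in B6 and 3516 to 4217 CPM in D2. Of 5 oligodendrocyte markers 3 were lower in D2 (Mog, Mag and Mobp), with a sum of 3981 to 5822 CPM in B6 and 3010 to 4400 CPM in D2, and without B6 replicates 3 and 5, which had the highest sums, the 5 lay between -0.36 and -0.13 on the log2 scale and did not pass in edgeR. Of 5 microglial markers P2ry12 was higher and C1qa lower, of 3 septum markers Trpc4 was higher (a call lost without B6 replicates 3 and 5), and none of 3 endothelial and 3 choroid plexus and ependyma markers passed. Their part in the values of the glycine genes was not tested.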

How the data were processed

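The deposited table holds raw gene counts, 1 column per mouse. The authors trimmed reads with fastp, aligned both strains to the B6 genome (GRCm39, Ensembl) with STAR 2.7.10b, sorted them with Samtools 1.6, counted them with featureCounts and removed genes with a median of 0. Columns with the authors' median, mean and low-value summaries were not used. Annotation was GENCODE M39, in which 29519 of 29883 identifiers were found.

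Counts were fitted with edgeR 4.0.16 in R 4.3.3 (TMM factors, quasi-likelihood F test, two-sided, strain as the only factor, no filter), and p-values were adjusted by Benjamini-Hochberg across the whole table, with a threshold of 0.05. Standard errors were taken from the F value. CPM were computed by edgeR from the deposited counts with the TMM-scaled library sizes. Ratios were tested by exact permutation, two-sided, over 252 assignments (smallest p 0.0079), adjusted over 6 quantities. Replicates are separate mice.

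The genes named are the 6 members, the genes of the lists that passed, the 2 genes most correlated with each member and the nearest gene with a mean of at least 100 reads on each side, with Glra4. Genes of the lists that did not pass, such as Psph and Slc38a5, were named after their values were seen. The members and lists were chosen with earlier results of these data known. Alternatives were DESeq2 1.42.0, its size factors, total counts, upper-quartile scaling, filterByExpr, at least 10 counts in every library, a threshold of 0.01, the replicate number as a block, the cortex marker level as covariate, each mouse left out and, chosen after seeing the data, B6 replicates 3 and 5 left out. Some genes of the lists are counted but not reported by name here. The fits were tested on simulated data.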

Additional observations from a re-analysis of the deposited data

Results flagged for a closer look

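In 4 results, 1 mouse lay so far from the other 4 of its strain that the gap to the nearest of them, divided by the range of the strain, was above 0.71, a level that chance passes in about 1 of 20 groups; 54 groups were examined. Glra1 in B6 replicate 2 was 0.891 CPM, where the next highest B6 mouse had 0.527 CPM. Glra1 in D2 replicate 1 was 1.215 CPM, where the next had 0.496 CPM, and the Glra1 share of the alpha subunits in that mouse was 5.36%, where the next had 2.26%. Slc6a9 in the same D2 replicate 1 was 69.8 CPM, where the next had 56.8 CPM.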

How the results depend on the processing

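The number of genes called was 5478, 3415 at an adjusted p under 0.01, and 4532 to 7742 in the other alternatives. The number of the 6 glycine genes called was 0 in all alternatives except the cortex marker covariate, where it was 3 (log2 fold changes 0.36 for Glra2, 0.70 for Glra3 and -0.14 for Glrb). Of the 31 genes in the 3 lists 5 were called, 8 in DESeq2 and 11 with that covariate. Without B6 replicates 3 and 5, chosen after seeing the data, the direction turned for Glra1 (-0.20), Glrb (0.0334), the Glra2 share (0.0191), the Glra3 share (-0.0365), Gphn to Glrb (-0.10) and Slc6a9 to Glrb (-0.029), all on the log2 scale. With 1 mouse left out, Glra1 ranged from -0.51 to 0.28, Slc6a9 from -0.0509 to 0.0696, the Glra1 share from -0.73 to -0.30 and the Glra2 share from -0.0469 to 0.0012. The causes were not tested. The replicate numbers did not pair the mice (correlations of same-numbered deviations from -0.416 to 0.373); with the replicate number as a block, 4731 genes and 0 of the 6 were called, and Glra1 was at -0.09. Among the 6 genes, Glra4 and the 3 lists around glycine, Glra1, Glra4 and Slc6a5 had the fewest reads, 5 to 143 per library.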
